A study of Mus musculus with 4 samples.

Results

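The 10 genes described here carry glucose through glycolysis to lactate and across the cell membrane in mouse retina. They were taken by symbol from the deposited gene table, and all 10 were found among its 14572 entries and were tested. They are the glucose transporter Slc2a1, the hexokinases Hk1 and Hk2, the liver-type phosphofructokinase Pfkl, the aldolase Aldoa, the phosphoglycerate kinase Pgk1, the pyruvate kinase Pkm, the lactate dehydrogenase subunits Ldha and Ldhb, and the monocarboxylate transporter Slc16a1. RNA came from whole retinas of C57BL/6 mice, collected 5 days after 1 h of acute ocular hypertension (AOH), a raised-pressure injury used to model glaucoma damage. The groups were wild type (2 libraries, P1041 and P1033) and PLSCR1 transgenic (2 libraries, TP-1036 and TP-1040), both injured, so a difference between the groups is one after injury. Uninjured retinas were not analysed here. The labels give an age of E14.5 to every sample, which sits oddly with an eye injury and 5 days of survival, and they do not name the promoter or the source species of the transgene.

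Retina is known for turning most of its glucose into lactate even when oxygen is plentiful, and the photoreceptors account for much of this aerobic glycolysis. Glucose enters through GLUT1, encoded by Slc2a1, is trapped by hexokinase, is committed to glycolysis by phosphofructokinase and leaves as pyruvate. Lactate dehydrogenase then interconverts pyruvate and lactate, with tetramers rich in the A subunit usually tied to lactate production and those rich in the B subunit to lactate use. MCT1, encoded by Slc16a1, moves lactate and pyruvate together with a proton and needs the chaperone basigin (Bsg) to reach the membrane.

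Many glycolytic genes are known targets of the hypoxia-inducible factors, whose DNA element has the core ACGTG or GCGTG. The sequence before each start site was therefore read as background. Whether it bears on differences between libraries was not tested. The RefSeq table (GRCm38.p6) held 15 start sites for the 10 genes. Each window was the 250 bases before the start, and both strands were searched, so a CACGTG palindrome counts as a match on each strand. The core was present in 12 of the 15 windows, against 38.6% of all 32851 windows of the same length. Each of the 10 genes had it in at least 1 window, against 41.5% of all 27025 genes. For Hk1 the matching window ended 121 bases from the nearest GENCODE start, and 186 of its 250 bases lay in exons. The Hk1 window that ended at a GENCODE start had 0 matches. In Pkm 140 bases of the matching window lay in exons. The windows of the first and second Aldoa starts overlap and hold the same match. Windows of the members held 49.6% to 76.4% G and C, and the core holds a CG pair. The shares over all windows and genes were not matched for this content. Shown are Hk2 and Ldha as the enzymes most tied to aerobic glycolysis, Pgk1 as a gene with 2 cores close together, and Slc16a1 as the member whose order of libraries differed from the others. Capitals mark the core or its reverse complement, and each sequence reads 5′ to 3′ on the gene's strand.
Hk2, chr6:82774455-82774704, minus strand: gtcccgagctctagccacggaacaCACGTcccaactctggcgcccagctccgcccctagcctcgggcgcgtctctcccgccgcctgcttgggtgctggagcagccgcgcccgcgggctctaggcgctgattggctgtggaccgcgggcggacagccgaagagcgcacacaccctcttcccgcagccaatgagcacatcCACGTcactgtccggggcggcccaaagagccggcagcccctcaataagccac
Pgk1, chrX:106186850-106187099, plus strand: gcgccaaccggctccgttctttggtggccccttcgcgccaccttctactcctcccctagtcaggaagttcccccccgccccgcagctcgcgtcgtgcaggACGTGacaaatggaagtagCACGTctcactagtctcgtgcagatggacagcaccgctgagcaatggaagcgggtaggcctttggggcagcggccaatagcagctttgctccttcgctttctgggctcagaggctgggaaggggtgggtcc
Ldha, chr7:46845554-46845803, plus strand, the first of its 2 listed starts: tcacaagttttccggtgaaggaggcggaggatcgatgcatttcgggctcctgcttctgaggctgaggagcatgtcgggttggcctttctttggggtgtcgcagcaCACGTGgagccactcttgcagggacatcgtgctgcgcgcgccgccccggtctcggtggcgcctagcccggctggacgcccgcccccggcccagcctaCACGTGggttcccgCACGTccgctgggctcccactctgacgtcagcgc
Slc16a1, chr3:104638414-104638663, plus strand: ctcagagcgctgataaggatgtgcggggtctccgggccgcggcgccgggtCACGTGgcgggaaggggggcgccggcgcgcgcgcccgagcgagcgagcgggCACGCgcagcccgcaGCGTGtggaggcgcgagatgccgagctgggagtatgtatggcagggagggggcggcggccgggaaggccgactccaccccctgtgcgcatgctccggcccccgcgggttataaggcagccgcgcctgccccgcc
Counting the base before the start as -1, the matches began at -226 and -52 in Hk2 and at -150 and -131 in Pgk1. In Ldha they began at -145, -144, -48, -47 and -34, the first 4 of which are 2 palindromes read on both strands. In Slc16a1 they began at -200, -199, -149 and -134. A match is only a run of letters, and binding was not measured.

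The deposited estimated read counts summed to between 28866589 and 41215649 per library. Each member had at least 3476 reads in every library, and 12 of 12 rod and 9 of 9 cone photoreceptor markers were present and tested, which matches the retina label. The 10 genes took 0.882% and 0.817% of all reads in the wild-type libraries P1041 and P1033, against 1.04% in TP-1036 and 0.830% in TP-1040. Library TP-1036 stood apart from the other 3 in ways no label names. It held 148 CPM of the lens crystallin Cryaa against 0.0600 to 2.98 CPM elsewhere, and its log2 difference from wild type fell with transcript length (Spearman correlation -0.417 across 14260 genes, which share these libraries). The same correlation was -0.0497 for TP-1040. Both transgenic libraries are therefore given side by side, and members and list medians also without TP-1036. Plscr1, the gene the transgene names, stood at 7.95 and 8.28 CPM in wild type and at 9.82 and 8.03 CPM in the libraries taken as transgenic (log2 difference 0.14 ± 0.17 SE, edgeR adjusted p = 0.724). These reads do not check the genotype label, so the libraries are called transgenic-labelled.

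Levels of different genes are compared as CPM (reads scaled to library size) per kilobase of the longest transcript of each gene. Aldoa had the highest level, with a mean over the 4 libraries of 1362 CPM per kilobase, and Pkm followed at 1104 CPM per kilobase. Their ranges over libraries overlapped (1205 to 1664 and 979 to 1283 CPM per kilobase), although Aldoa lay above Pkm in each of the 4 libraries. Ldha at 519, Hk1 at 320 and Pgk1 at 233 CPM per kilobase came next, each with a range that did not touch its neighbours'. Hk2 at 103, Ldhb at 90.4 and Pfkl at 85.1 CPM per kilobase could not be ordered by range, as all 3 overlapped, but Hk2 was above both others in each library. Slc2a1 at 62.9 and Slc16a1 at 44.0 CPM per kilobase were the lowest and did not overlap. The general hexokinase gene Hk1 therefore stood above Hk2, and Ldha above Ldhb, in 4 of 4 libraries. In CPM the order of genes differed, with Pkm above Aldoa (means of 2686 and 2109) and Hk1 above Ldha (1371 and 942). Hk2 also stood above Pgk1 (570 and 426), and Ldhb was the lowest (118). The order per kilobase thus rests in part on the lengths taken. Reads of Aldoa, Pgk1, Ldha and Pkm may be shared with processed pseudogenes, and the counts of Pkm were partly fractional, so these levels are less certain. Counts per gene do not separate the PKM1 and PKM2 splice forms of Pkm.

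**Figure D1:**
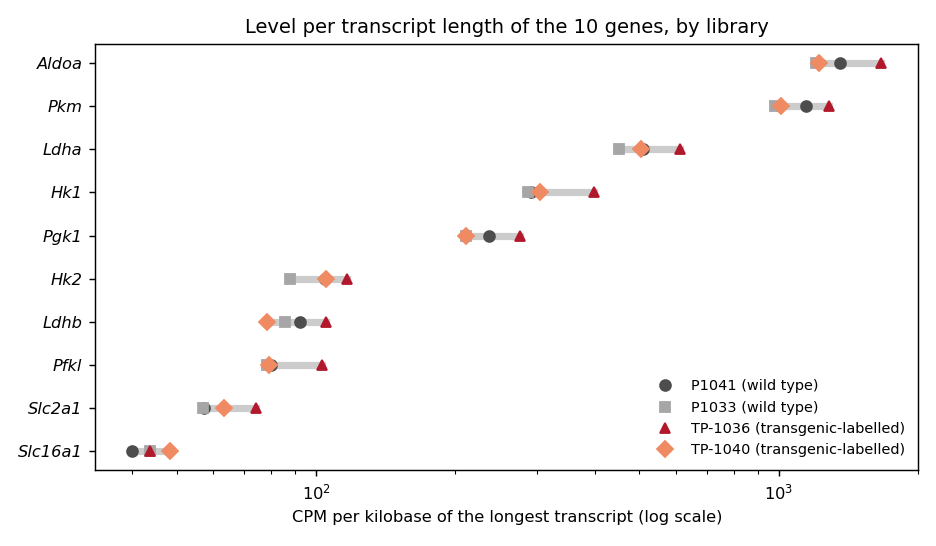
Level of each gene in CPM per kilobase of its longest transcript (horizontal, log scale), 1 symbol per library and a grey bar from the lowest to the highest. Aldoa and Pkm lie at 979 CPM per kilobase or more in every library, and Slc16a1 lies lowest, with a mean of 44.0 CPM per kilobase.

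The comparison of genotypes asked whether the transgenic-labelled retinas held more or less of these transcripts after the injury. All 10 genes had a higher mean in the transgenic-labelled group, by 1.03-fold to 1.22-fold, and none of the 10 passed the test (edgeR quasi-likelihood test, adjusted p from 0.504 to 0.928, 0 of 10 at an unadjusted p of 0.05). With DESeq2 and with limma-voom 0 of 10 passed as well, also before adjustment. Across all 14421 tested genes 0.00693% passed, which was the single gene Lyz2, and 9.77% had an unadjusted p under 0.05. The members' median log2 difference was 0.19, beside 0.00087 over all tested genes, and 50.1% of all genes had a value above 0. It was 0.038 without TP-1036, 0.11 without P1033 and 0.33 without TP-1040. The groups did not overlap, with the transgenic-labelled side higher, in 4 of the 10 (Hk1, Hk2, Slc2a1 and Slc16a1), where 24.0% of all tested genes did so. In bulk retina, a change in the number of cells of a type and a change in RNA per cell cannot be told apart.

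Slc2a1, the entry point of glucose, measured 187 and 185 CPM in wild type against 241 CPM in TP-1036 and 206 CPM in TP-1040, an order of libraries kept in the values below. The wild-type values nearly coincided and both transgenic-labelled values lay above them, with a gap of 19.2 CPM between the groups. The means were 186 ± 1.15 and 224 ± 24.9 CPM (SD, n = 2 each), a log2 difference of 0.27 ± 0.13 (SE, 95% interval -0.036 to 0.57, edgeR adjusted p = 0.504). This was the smallest adjusted p among the 10 genes. The difference was 0.15 without TP-1036 and 0.38 without TP-1040.

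Hk1, the hexokinase of most neurons, measured 1245 and 1229 CPM in wild type against 1709 and 1301 CPM. The wild-type libraries again lay close together, and TP-1036 was far above the rest. The log2 difference was 0.28 ± 0.17 (SE, 95% interval -0.11 to 0.68, edgeR adjusted p = 0.523), and 0.076 without TP-1036.
Hk2, the hexokinase enriched in photoreceptors, measured 577 and 484 CPM in wild type against 642 and 578 CPM. TP-1040 and P1041 were almost equal here, the groups being separated by only 1.05 CPM, less than the counting error of 4.48 CPM (SD) in P1041 alone. The log2 difference was 0.20 ± 0.14 (SE, 95% interval -0.14 to 0.54, edgeR adjusted p = 0.557), and leaving out TP-1036 gave 0.13, while leaving out P1033 gave 0.081.
The ratio of Hk2 to Hk1 reads was 0.463 and 0.394 in wild type against 0.376 (TP-1036) and 0.444 (TP-1040). The spread within each group was wider than the difference between them (log2 -0.064, exact two-sided permutation p = 0.667, where 2 against 2 libraries cannot go below 0.33). The sign turned without P1041 (0.053) and without TP-1036 (0.056).

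The enzymes in the middle of the pathway shared a pattern in which TP-1036 was highest and TP-1040 lay within or below the wild-type range. Pfkl, a subunit of the enzyme that commits sugar phosphate to glycolysis, measured 298 and 292 CPM in wild type against 383 and 296 CPM. Aldoa, which splits the 6-carbon sugar phosphate, measured 2099 and 1867 CPM against 2577 and 1895 CPM. Pgk1, the first ATP-producing step, measured 431 and 385 CPM against 504 and 384 CPM. In each of these genes TP-1040 was nearer to P1033 than to TP-1036, and the groups overlapped.
Pkm, the last ATP-producing step, measured 2783 and 2381 CPM in wild type against 3120 and 2457 CPM, also with overlap. The log2 differences were 0.20 ± 0.15 for Pfkl, 0.17 ± 0.18 for Aldoa, 0.12 ± 0.16 for Pgk1 and 0.11 ± 0.18 for Pkm (SE, edgeR adjusted p from 0.571 to 0.779). Without TP-1036 the value was 0.0070 for Pfkl and turned to -0.062 for Aldoa, -0.085 for Pgk1 and -0.069 for Pkm.

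**Figure D2:**
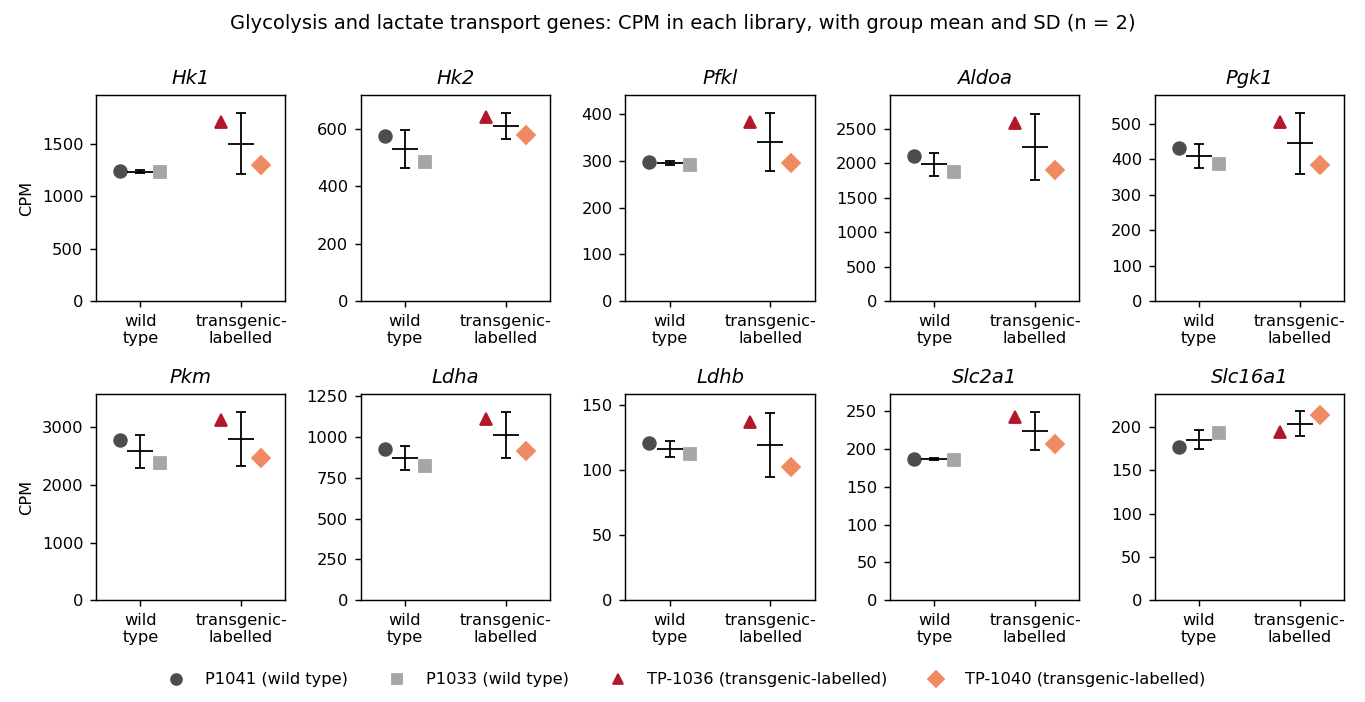
CPM of each gene (vertical, from 0) in the 4 libraries, with the group mean and SD beside the points (n = 2 per group). TP-1036 is the highest of the 4 libraries in 9 of the 10 genes, while TP-1040 is the highest for Slc16a1.

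The lactate dehydrogenase subunits differed from each other in how they stood between the groups. Ldha measured 924 and 821 CPM in wild type against 1109 and 913 CPM, with TP-1040 just inside the wild-type range. Its log2 difference was 0.21 ± 0.15 (SE, 95% interval -0.15 to 0.57, edgeR adjusted p = 0.559), and 0.069 without TP-1036. Ldhb measured 121 and 112 CPM in wild type against 137 and 102 CPM, so the transgenic-labelled libraries took both the highest and the lowest value. Its log2 difference was 0.037 ± 0.16 (SE, edgeR adjusted p = 0.928), and it turned to -0.19 without TP-1036 and to -0.016 without P1033.
Within a library, where scaling cancels, reads of Ldha outnumbered those of Ldhb 7.66-fold and 7.33-fold in wild type, against 8.11-fold in TP-1036 and 8.96-fold in TP-1040. Of the 3 ratios computed this was the only one whose groups did not overlap. The log2 ratio was 2.91 ± 0.044 in wild type and 3.09 ± 0.10 in the transgenic-labelled group (SD, n = 2 each), a difference of 0.19, and the exact two-sided permutation p of 0.33 is the smallest that this design can give. The difference ranged from 0.11 without TP-1040 to 0.26 without TP-1036. Adjusted over the 3 ratios (Benjamini-Hochberg), each permutation p was 1.

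Slc16a1, the lactate transporter, departed from the enzymes in its order of libraries. It measured 178 and 193 CPM in wild type against 194 and 214 CPM, so P1041 was the lowest and TP-1040 the highest. Both transgenic-labelled values were above both wild-type values, but TP-1036 exceeded P1033 by only 0.454 CPM, against a counting error of 2.41 CPM (SD) in P1033. The log2 difference was 0.14 ± 0.12 (SE, 95% interval -0.15 to 0.43, edgeR adjusted p = 0.618), from 0.070 without TP-1040 to 0.21 without TP-1036.
Its partner Bsg followed the enzymes instead, at 597 and 557 CPM in wild type against 827 and 608 CPM (log2 difference 0.31 ± 0.17 SE, edgeR adjusted p = 0.520). Slc16a1 has 4426 bases and Bsg 1526, so a trend with transcript length does not cancel in their ratio. The log2 gap of TP-1036 over TP-1040 was -0.14 for Slc16a1 and 0.44 for Bsg. With the length trend removed the gaps were -0.078 and 0.23. Reads of Slc16a1 per read of Bsg were 0.297 and 0.347 in wild type against 0.235 (TP-1036) and 0.352 (TP-1040). TP-1036 held the lowest and TP-1040 the highest ratio of the 4, so the groups overlapped (log2 difference -0.16, exact two-sided permutation p = 1, and 0.13 without TP-1036).

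**Figure D3:**
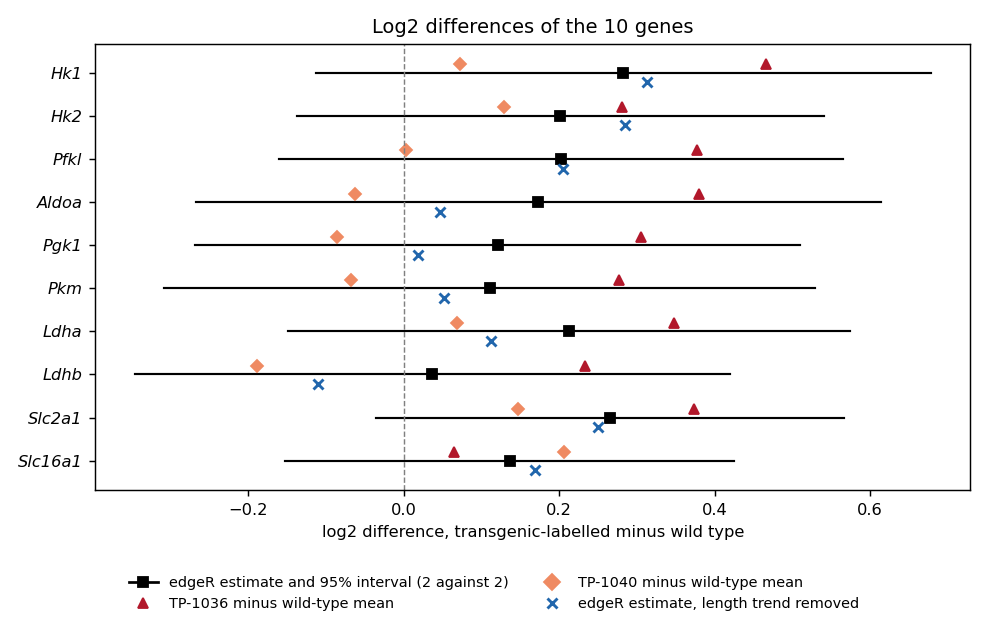
Log2 difference of each gene (horizontal), as the edgeR estimate with its 95% interval over 2 against 2 libraries, as each transgenic-labelled library minus the wild-type mean, and as the edgeR estimate after a length trend was removed. All 10 intervals include 0, and the points of TP-1036 lie right of those of TP-1040 in 9 of the 10 genes.

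The wider spread lay between the transgenic-labelled libraries. TP-1036 was above TP-1040 in 9 of the 10 genes, with a median log2 gap of 0.36, against 50.3% of all tested genes. TP-1036 was the highest of the 4 libraries in 9 of 10 genes (38.7% of all tested genes). It was above both wild-type libraries in 10 of 10, where 43.8% of all tested genes were. TP-1040 was above the wild-type mean (log2) in 6 of 10, where 7116 of all 14421 tested genes were. The wild-type libraries were also ordered, since P1033 lay below P1041 in 9 of the 10 (median -0.14), while 51.7% of all genes had P1033 above P1041. As deviations from wild type, TP-1036 had a median over the members of 0.33, and TP-1040 one of 0.036.
Without TP-1040 5 of the 10 genes rose (Hk1, Pfkl, Pgk1, Ldha and Slc2a1, edgeR adjusted p from 0.0112 to 0.0489), in a fit with a single transgenic-labelled library that is assumed to vary like wild type. That fit called 13.1% of all genes higher and 15.9% lower. Without TP-1036 0 of the 10 passed.

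Over all genes, the median log2 gap of TP-1036 over TP-1040 was 0.24 for the 2637 genes whose longest transcript is under 2 kb, 0.052 for those of 2 to 4 kb and -0.15 for the 5680 genes over 4 kb. Of the members, Ldhb (1304 bases), Aldoa (1549), Ldha (1815) and Pgk1 (1825) are under 2 kb, and they had gaps of 0.42, 0.44, 0.28 and 0.39. Hk1 and Hk2, with 4278 and 5513 bases, had positive gaps as well, at 0.39 and 0.15, on the other side of 0 from the median of their length class. Slc16a1, with 4426 bases, was the member with a negative gap, at -0.14, close to that median. Pfkl, Pkm and Slc2a1, between 2 and 4 kb, had gaps of 0.37, 0.34 and 0.23, all above the median of their class.
When each library's trend on length was removed, an alternative added after the values were seen, the log2 difference was 0.31 ± 0.16 for Hk1, 0.28 ± 0.14 for Hk2, 0.25 ± 0.10 for Slc2a1 and 0.17 ± 0.090 for Slc16a1 (SE). It was 0.21 ± 0.14 for Pfkl, 0.11 ± 0.10 for Ldha, 0.046 ± 0.12 for Aldoa, 0.019 ± 0.11 for Pgk1 and 0.052 ± 0.14 for Pkm, and it turned to -0.11 ± 0.097 for Ldhb (SE). None of the 10 passed (edgeR adjusted p from 0.408 to 0.947).

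**Figure D4:**
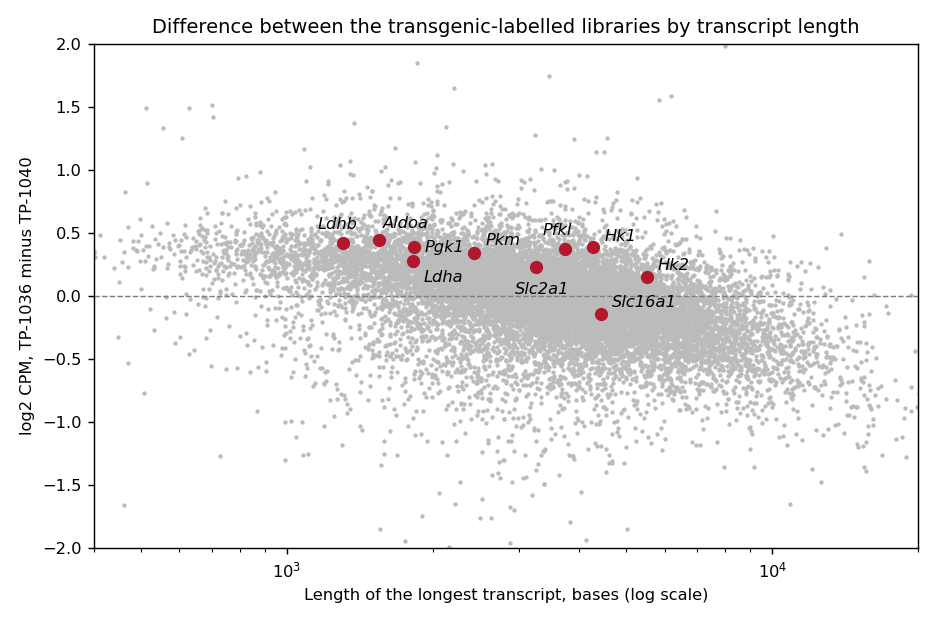
Log2 CPM of TP-1036 minus TP-1040 (vertical) against the length of the longest transcript (horizontal, log scale) for 14260 genes in grey and the 10 members in red, with 36 genes outside the axes. Short transcripts lie mostly above 0 and long ones below, and Slc16a1 is the only member below 0.

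Markers of retinal cell types were summed in each library, and apart from Lyz2 among the microglia and macrophage markers 0 passed the test (edgeR). The 12 rod photoreceptor markers, which include rhodopsin, summed to 72658 and 65252 CPM in wild type, against 82242 CPM in TP-1036 and 74847 CPM in TP-1040, and 11 of the 12 had a higher mean in the transgenic-labelled group. The summed CPM of the 10 members was 12.2% of the summed rod markers in both wild-type libraries, 12.9% in TP-1036 and 11.2% in TP-1040. Set against the rod sum, each of the 10 members had overlapping groups, and Hk1, the highest, had a log2 difference of 0.081. Müller glia markers (12 of 12 higher) summed to 6628 and 7091 CPM in wild type, against 10928 CPM in TP-1036 and 8375 CPM in TP-1040. Against that sum the members stood at 133% and 112% in wild type, against 97.1% in TP-1036 and 99.7% in TP-1040. Apoe, 1 of the 12 Müller glia markers, measured 1013 and 1237 CPM in wild type against 2627 CPM in TP-1036 and 2036 CPM in TP-1040. These percentages therefore rest in part on 1 gene.
Endothelial markers, relevant because GLUT1 is abundant in vessels of the blood-retina barrier, summed to 451 and 492 CPM in wild type and 533 and 559 CPM (10 of 12 higher). Ganglion cell markers had lower means, with 0 of 11 higher and sums of 963 and 659 CPM against 580 and 532 CPM. Cone markers (6 of 9 higher) summed to 1001 and 936 CPM against 1097 and 1029 CPM, and astrocyte markers (5 of 5 higher) to 173 and 146 against 256 and 189 CPM. Microglia and macrophage markers (14 of 14 higher) summed to 163 and 187 CPM against 457 and 309 CPM. Red blood cell markers, from cells that live by glycolysis, summed to 92.2 and 104 CPM against 170 CPM in TP-1036 and 60.8 CPM in TP-1040 (5 of 5 with a higher group mean). Of 10 lens markers 3 were tested, and they summed to 3.30 and 0.810 CPM against 234 and 5.69 CPM. The part of these cell types, and of transcript length, in the members' differences was not tested.

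The remaining enzymes of glycolysis gave no common direction. Of 22 listed, 15 were tested, with 9 higher and 6 lower means, a median log2 difference of 0.066 (-0.068 without TP-1036 and -0.0091 without P1033), and 0 that passed in either direction (1 higher at an unadjusted p of 0.05). In this and the other lists below 0 genes passed with DESeq2 or limma-voom. Gapdh, with the most reads of them, measured 3620 and 3060 CPM in wild type against 4409 and 3260 CPM, the same order of libraries as Aldoa and Pkm. Per kilobase of the longest transcript, the enolase Eno1 (2027 bases) had a mean of 1333 CPM per kilobase, against 1091 for Gapdh (3289 bases). In CPM Gapdh was the higher, at a mean of 3587 against 2702, so the order per kilobase rests on the lengths taken. Groups did not overlap in 3 of the 15, against 48.3% of all tested genes. Among them were the hexokinase-domain gene Hkdc1 at 0.40 ± 0.17 and the platelet-type phosphofructokinase Pfkp at -0.20 ± 0.12 (log2, SE). Pfkp stood at 308 and 302 CPM in wild type against 253 and 279 CPM, opposite in sign to Pfkl. With 8681 bases it is a long transcript, and its value was -0.015 once the length trend was removed.

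Genes that set glycolytic flux were mixed, with 4 of 9 tested higher, a median of -0.021 (-0.0078 without TP-1036 and -0.13 without TP-1040) and 0 that passed (1 higher and 1 lower at an unadjusted p of 0.05). Pfkfb2, which makes the sugar bisphosphate that activates phosphofructokinase, measured 262 and 278 CPM in wild type against 141 in TP-1036 and 259 in TP-1040. Its low value was thus in TP-1036, where its log2 deviation was -0.94, against -0.056 in TP-1040 (difference -0.43 ± 0.26 SE, edgeR). Pyruvate dehydrogenase kinases, which inhibit pyruvate dehydrogenase, differed in sign. Pdk2 measured 60.7 and 61.4 CPM against 81.2 and 73.5 CPM (0.34 ± 0.12, log2, SE), and Pdk1 47.8 and 42.7 CPM against 35.6 and 38.0 CPM (-0.30 ± 0.12). The pyruvate dehydrogenase phosphatase Pdp1, which reverses the kinases, stood at -0.19 ± 0.12. Pfkfb2, Pdk2, Pdk1 and Pdp1 were picked for groups that do not overlap. Over the 9 tested, groups did not overlap in 1 higher and 3 lower (24.0% and 24.3% of all tested genes).

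Other sugar and monocarboxylate carriers spread more widely than the 10 members. Of 25 listed, 19 were tested, 8 higher and 11 lower, with a median of -0.14 (-0.12 without TP-1036, -0.034 without TP-1040 and 0.029 without P1033) and 0 that passed (3 higher and 4 lower at an unadjusted p of 0.05). Their groups did not overlap in 7 higher and 6 lower (24.0% and 24.3% of all tested genes). Slc16a8, the MCT3 lactate exporter of the retinal pigment epithelium, measured 2.15 and 1.23 CPM in wild type against 4.45 and 2.98 CPM (1.14 ± 0.36, log2, SE). Markers of that epithelium, Slc16a8 among them, had higher means in 8 of the 11 tested and summed to 52.8 and 83.9 CPM in wild type against 137 and 88.2 CPM, and their part was not tested. Emb (embigin), the other chaperone of monocarboxylate transporters, measured 27.9 and 22.8 CPM against 15.9 and 18.0 CPM (-0.58 ± 0.15), the reverse of Bsg in sign. The sodium-coupled monocarboxylate transporter Slc5a8 was at -0.53 ± 0.17, without overlap (log2, SE).
Next to the members Slc2a1 and Slc16a1 stand the neuronal glucose transporter Slc2a3 and the lactate exporter Slc16a3 (MCT4), which were chosen after their values were seen. Slc2a3 measured 78.2 and 66.0 CPM in wild type against 57.2 and 58.5 CPM (-0.32 ± 0.13), opposite in sign to Slc2a1. With 6253 bases Slc2a3 is a long transcript, and its value was -0.21 ± 0.12 (SE) once the length trend was removed. Slc16a3 measured 39.8 and 36.5 CPM against 54.8 and 43.8 CPM (0.37 ± 0.15, log2, SE). Neither passed over all genes (edgeR adjusted p = 0.5 and 0.5).

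**Figure D5:**
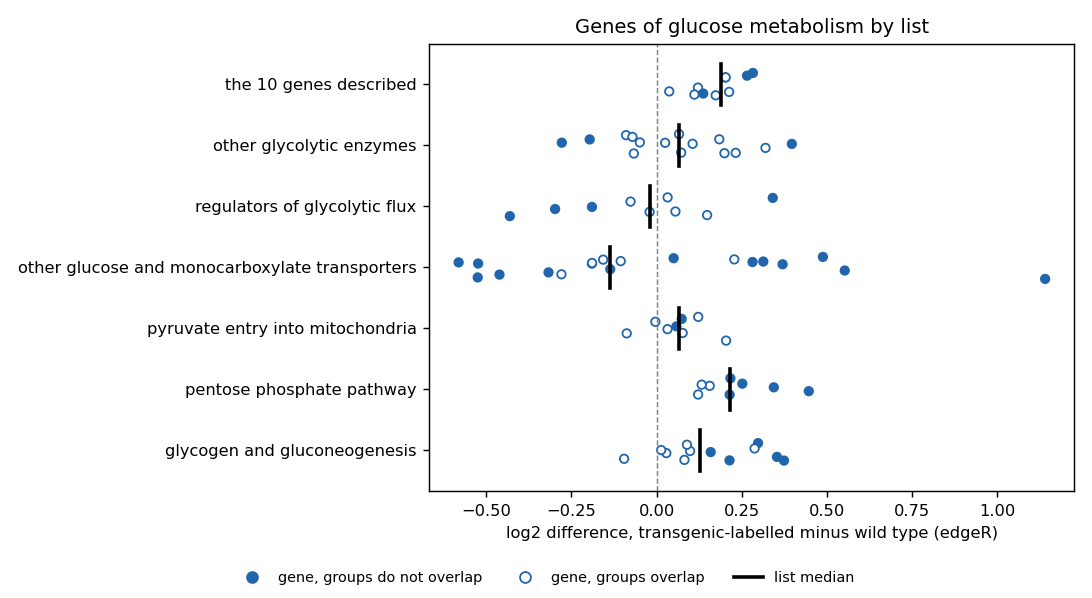
Log2 difference (horizontal) of each tested gene, by list, with the list median as a black bar and filled points for genes whose groups do not overlap. The 10 genes lie between 0.037 and 0.28, while the transporters run from -0.58 to 1.14.

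No gene of the branches off glycolysis passed the test. All 8 genes of the pentose phosphate pathway, a branch that starts from glucose 6-phosphate and makes NADPH, had higher means. Their median was 0.22, or 0.10 when TP-1036 and 0.32 when TP-1040 was left out. In 5 the groups did not overlap, all higher, against 24.0% of all tested genes. Of the 8, 0 passed (1 higher at an unadjusted p of 0.05). Pgls was at 0.45 ± 0.18, Taldo1 at 0.34 ± 0.17, Pgd at 0.25 ± 0.14 and Rpia at 0.22 ± 0.16 (log2, SE). In Pgd the groups were only 0.062 CPM apart, less than the counting error of 1.41 CPM (SD) in P1041. Rpia differed from the others in having like values in both transgenic-labelled libraries (8.13 and 8.27 CPM, against 6.94 and 7.17 in wild type). Tkt, with the most reads of the list, measured 200 and 177 CPM against 233 and 187 CPM, with overlap.
Of 12 tested genes of glycogen metabolism and gluconeogenesis 11 had higher means (median 0.13, or 0.022 when TP-1036 and 0.26 when TP-1040 was left out) and 0 passed (3 higher at an unadjusted p of 0.05). The brain and muscle glycogen phosphorylases Pygb and Pygm, which release glucose units from glycogen, stood at 0.35 ± 0.12 and 0.30 ± 0.12. The glycogenin Gyg was at 0.37 ± 0.15 and the branching enzyme Gbe1 at 0.21 ± 0.13 (log2, SE). Pygb measured 99.7 and 103 CPM in wild type against 140 and 120 CPM, and Pygm 106 and 105 CPM against 139 and 121 CPM. Pygb, Pygm, Gyg and Gbe1 were picked for groups that do not overlap. Over the 12 tested, groups did not overlap in 5, all higher, against 24.0% of all tested genes.
Genes of pyruvate entry into mitochondria lay between -0.088 and 0.20, with a median of 0.066 over 8 genes (-0.014 without TP-1036), 6 of them higher and 0 that passed (0 at an unadjusted p of 0.05). Dld, with the most reads, measured 114 and 107 CPM against 118 and 115 CPM, and Dlat 60.4 and 62.7 CPM against 65.1 and 63.0 CPM.

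For 4 members the tested genes with the most similar profile were found, by the root mean square distance between log2 CPM values centred over the 4 libraries. With 4 libraries many genes match by such a measure. Nearest to Hk2 were Nim1k, Pcdhb9 and Kcnj14, at distances of 0.0068 to 0.018. Nearest to Ldha were Rtl8a, Zmynd19 and Ube2m, at 0.0037 to 0.0083. Nearest to Slc2a1 were Lrfn2, Hist1h4h and Etfa, at 0.0049 to 0.0072. Nearest to Slc16a1 were Dnajc24, Hr and Tob2, at 0.0074 to 0.0088. No other member or listed gene of glucose metabolism was among these 12.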

How the data were processed

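The labels' protocols describe 1 ug of total retinal RNA made into libraries with the Illumina TruSeq kit. Bowtie 0.12.2, mm8 and mm9 appear in the submitters' processing notes with no stated role. The counter, annotation, strand setting and filters are named in no source used here. Per gene, the authors deposited 4 columns of estimated counts, a unit read from the values (80.3% to 82.4% whole, with unequal totals). The smallest total of an entry was 76.9 reads, and 4 further columns were not used. Column names gave the group by WT with ctrl, or by case, and carried a number that no label repeats, and with only 2 groups in the series the case columns were assigned to the transgenic one. No source used here ties libraries to separate animals. The p-values then measure only how far these libraries spread, which may be technical. Chi-square per degree of freedom was 11.0 within wild type and 59.7 within the transgenic-labelled pair, so neither pair agreed within sampling noise.

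Counts were rounded, and 14421 of 14572 entries with a mean CPM of at least 1 were tested with edgeR 4.0.16 (TMM scaling, quasi-likelihood test, two-sided, Benjamini-Hochberg over all tested genes, threshold 0.05) in R 4.3.3. The common biological coefficient of variation was 13.8%. Each SE was taken from the F statistic (absolute log2 difference over its square root). Per-library log2 values add 0.5 CPM. Lengths came from GENCODE M21 (longest transcript of a symbol), and 161 tested entries had none. Alternatives were DESeq2 1.42.0, limma-voom (limma 3.58.1), other scalings and filters, each library left out, and a length offset added after the values were seen.

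The members and lists were chosen with earlier results of these data known. The text names the 10 members, Bsg and Plscr1, then from each list up to 4 genes without overlap and with the largest difference plus the one with the most reads, and the 3 nearest profiles of 4 members. Slc2a3, Slc16a3, Eno1 and Apoe were named outside this rule. Some genes that the rule takes were left out of the text.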

Additional observations from a re-analysis of the deposited data

How the results depend on the processing

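Outside the fits that left out a library, the 10 members kept their direction and stayed short of the threshold in 69 of 70 member and setting pairs over 7 settings, the exception being Ldhb at -0.11 with the length trend removed. The number of genes called over the whole table was 1, and it was 84 with DESeq2, 0 with column totals only, 0 at a mean CPM of at least 5, 0 with the length trend removed, and 14 to 4184 with each library left out (the highest without TP-1040). With the length trend removed the median of the other glycolytic enzymes turned to -0.011 and that of pyruvate entry to -0.00067. With each library left out in turn, log2 differences ran from 0.076 to 0.47 for Hk1, 0.0070 to 0.38 for Pfkl, -0.062 to 0.38 for Aldoa, -0.085 to 0.31 for Pgk1, -0.069 to 0.28 for Pkm, 0.069 to 0.35 for Ldha, -0.19 to 0.24 for Ldhb and 0.15 to 0.38 for Slc2a1. List medians ran from -0.068 to 0.21 for other glycolytic enzymes, -0.13 to -0.0078 for flux regulators, -0.12 to 0.029 for other transporters, -0.014 to 0.11 for pyruvate entry, 0.10 to 0.32 for pentose phosphate genes, 0.022 to 0.26 for glycogen and gluconeogenesis and 0.038 to 0.33 for the members. Log2 ratios ran from -0.18 to 0.056 for Hk2 to Hk1 and from -0.45 to 0.13 for Slc16a1 to Bsg. The cause of these shifts was not tested. No paired analysis was possible because the columns of the table carry no replicate number of the labels. With 2 libraries a group, the upper ends of the 95% intervals of the members run from 0.42 (Ldhb) to 0.68 (Hk1) on the log2 scale.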
